A study of Homo sapiens with 8 samples.

Results

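The comparison described here is that of ARPE-19 cells given diesel particulate together with fucoidan against cells given fucoidan alone, which shows the response to the particulate in cells that all received the polysaccharide. It rests on 4 of the 8 RNA-seq libraries of the study, 2 labelled fucoidan and 2 labelled particulate plus fucoidan, taken by their labels. ARPE-19 is an established line that arose from human retinal pigment epithelium. The fucoidan group received 400 µg/mL of a crude-grade sulfated polysaccharide of the brown seaweed Fucus vesiculosus, in PBS, for 24 h. The combination group received the same dose at the same time as 200 µg/mL of NIST SRM 1650b, a diesel exhaust reference material that the labels also call PM2.5. The other 4 libraries are a control group with PBS and a particulate group with SRM 1650b at 200 µg/mL and no fucoidan, 2 each. They enter the fit and serve at the end as the response without fucoidan. All groups are 1 cell line in 10% serum, treated near 80% confluence. The particulate stock was made in DMSO, and neither the fucoidan nor the control group is labelled as given DMSO, so an effect of the particles and of their solvent cannot be told apart.

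Read counts totalled between 12993565 and 17019284 per library. The fucoidan replicates lay close together, with 1.55% of the 15010 genes tested differing at least 2-fold between them. The combination replicates did not, with 11.3% of genes that far apart, 798 higher and 892 lower in replicate 1. On the second principal component, which held 18.7% of the variance, combination replicate 1 stood at -58.4 and combination replicate 2 at 8.62. The larger shifts without combination replicate 1, and for some lists without combination replicate 2, are therefore given beside the results. With 2 libraries, which of them departs from the group cannot be told. Their sample quality weights in limma-voom were 0.362 and 0.372. Of 15 pigment epithelium markers, 10 passed the filter on low counts, and DCT and TTR had no read in any library while RPE65 had reads in 1 of these 4. Summed photoreceptor, glial and endothelial markers stayed at or under 0.599 CPM in each of the 4 libraries. Summed leukocyte markers reached 1.73 CPM in combination replicate 1, nearly all of it CD14 at 1.60 CPM, while PTPRC and CD3E were at 0. Summed keratinocyte markers ran from 30.6 to 31.6 CPM in fucoidan and from 25.8 to 26.8 CPM in combination, mostly KRT10, with KRT1 and KRT5 at 0.

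In outline, 48.6% to 63.6% of the tested genes rose in the NRF2, ATF4, inflammatory and immediate early lists, against 10.2% of all genes. In the fibrillar matrix, basement membrane, contractile and pigment epithelium lists 53.6% to 57.9% fell, against 10.6% of all genes. The lists were chosen with earlier results of these data known. Combustion particles carry metals and aromatic compounds. Cells are known to answer such material through transcription factors that respond to oxidants (NRF2), aromatic ligands (the aryl hydrocarbon receptor) and stresses such as amino acid shortage (ATF4). The pigment epithelium recycles retinoids for the photoreceptors, keeps a basement membrane against the choroid and holds a tight epithelial sheet. Matrix output and contractility in such cells are driven in part by TGF-beta, serum response factor (SRF) and YAP.

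Of 15010 genes tested, 3110 (20.7%) passed an adjusted p of 0.05 in edgeR's quasi-likelihood test, 1526 higher (10.2%) and 1584 lower (10.6%) in the combination libraries. At least 2-fold changes made up 1666 of them, 644 higher and 1022 lower, and the median log2 fold change over all genes tested was 0.03. With the spread estimated from only the 4 libraries compared, 636 genes were higher and 841 lower. Both combination libraries lay on the same side of the fucoidan mean for all 3110 genes, and for 3109 the groups did not overlap. The genes were called on these same libraries, so this separation largely follows from the selection and is no separate support. The same holds wherever groups of called genes are said below not to overlap. When combination replicate 1 was left out, 1566 genes were higher (10.4%) and 1690 lower (11.3%). Of the 3110 genes, 0 changed sign there, which follows from both libraries lying on the same side of the fucoidan mean. The counts depended more on the fucoidan libraries. They were 244 higher and 550 lower without fucoidan replicate 1, 303 and 639 without fucoidan replicate 2, 2699 and 2528 without combination replicate 2, and 912 and 1084 or 911 and 1083 without control replicate 1 or 2. Levels below are CPM, counts scaled to library size with TMM, fold changes are log2 values ± SE from the fit, and adjusted p-values are Benjamini-Hochberg values over all 15010 genes. Each group has n = 2. List counts given below for a fit without 1 library belong beside the all-gene counts of that same fit, not beside 10.2% and 10.6%.

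The largest increase among genes with at least 5 CPM over the 4 libraries was that of ANGPTL4 (ENSG00000167772, GRCh38 chr19:8363289-8374373, plus strand), a secreted inhibitor of lipoprotein lipase. It was at 1.25 and 1.14 CPM in the fucoidan libraries and 509 and 55.2 CPM in the combination libraries. Both combination libraries were far above both fucoidan libraries, and replicate 1 was well above replicate 2 (log2 fold change 7.88 ± 1.08, adjusted p = 0.00148). Without combination replicate 1 the log2 fold change was 5.53. The other large increases were those of CHAC1, SPRY4, ARC, IL6R, SLC7A11, CXCL8, TRIB3, PDE4D, PTX3, CXCL3 and FOSL1. ARC lost its call without combination replicate 1 (adjusted p = 0.0532) and without either fucoidan replicate (adjusted p = 0.0915 and 0.135), and PDE4D without either fucoidan replicate (0.1 and 0.0877). The largest decrease was that of ELF3 (ENSG00000163435, chr1:202007945-202017188, plus strand), an epithelial ETS transcription factor, which went from 25.0 and 23.8 CPM to 0.266 and 0.167 CPM, or from 719 reads over the fucoidan libraries to 7 over the combination libraries. The antisense gene ELF3-AS1 fell beside it, and reads of the pair cannot be separated without strand information. The next included EDN2, ANGPTL7, KRT13, CRB2, FOXS1, DIO2, HSD17B2, COL9A2 and KRT33B. DIO2, the deiodinase that activates thyroid hormone, went from 1306 and 1176 CPM to 14.6 and 73.2 CPM (log2 fold change -4.82 ± 0.60, adjusted p = 0.000897).

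**Figure D1:**
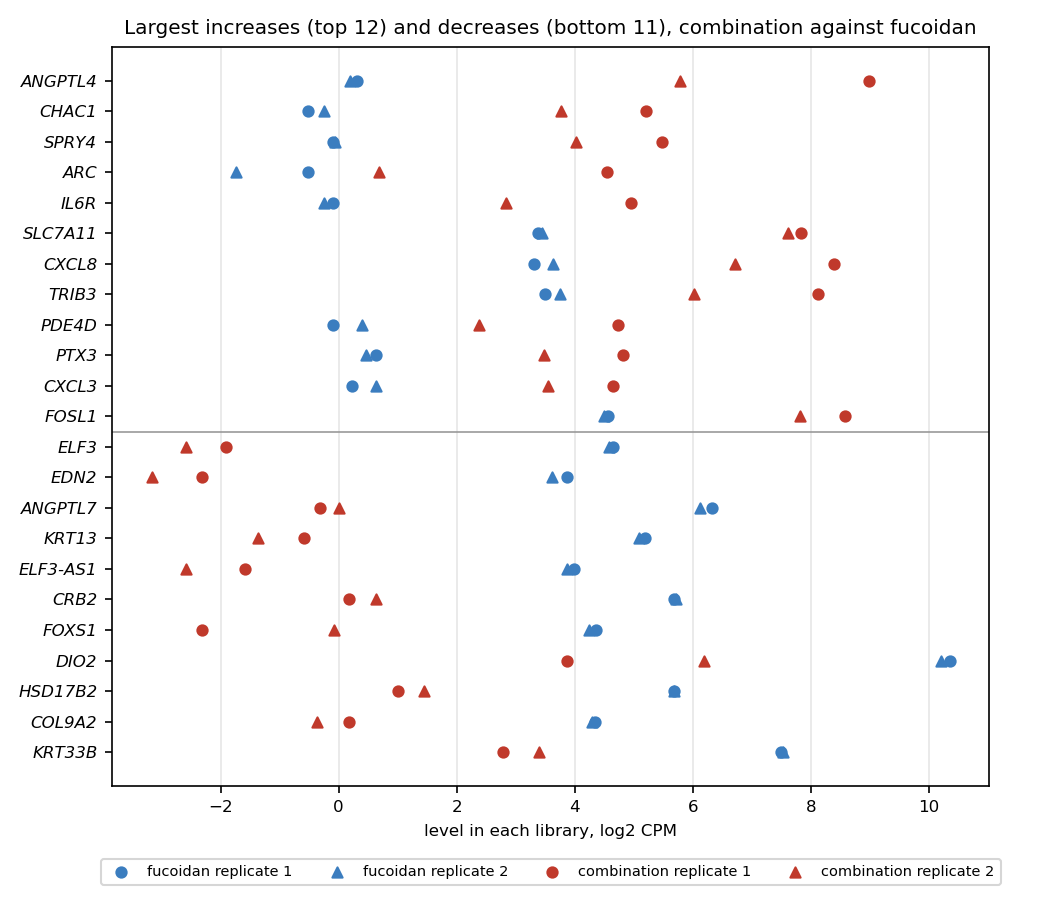
Level in each of the 4 libraries (x axis, log2 CPM) of the 12 largest increases and of 11 of the 12 largest decreases among genes with adjusted p under 0.05, at least 5 CPM on average and groups that do not overlap. Blue marks are fucoidan and red marks combination, circles replicate 1 and triangles replicate 2; red circles lie to the right of red triangles for all 12 increases, while the decreases shown have no such order.

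Genes of the NRF2 pathway, which supply glutathione and reduce oxidised proteins and quinones, were mostly higher with particulate. Of 35 tested, 17 rose (48.6%, against 10.2% of all genes) and 2 fell, and the median over the 35 was 0.92 on the log2 scale. The median was 0.80 with combination replicate 1 left out, and 0.85 and 1.01 without fucoidan replicate 1 and 2. SLC7A11 (ENSG00000151012, chr4:138164097-138242349, minus strand), the cystine importer that feeds glutathione synthesis, was at 10.4 and 10.9 CPM in the fucoidan libraries and 227 and 195 CPM in the combination libraries. The combination libraries nearly coincided and stood well clear of the fucoidan pair (log2 fold change 4.31 ± 0.22, adjusted p = 1.97e-05). GCLM, the regulatory subunit of the enzyme that starts glutathione synthesis, went from 19.5 and 20.6 CPM to 104 and 81.4 CPM (log2 fold change 2.20 ± 0.19, adjusted p = 0.000165). NQO1, a quinone reductase, was at 156 and 179 CPM in the fucoidan libraries and 1007 and 823 CPM in the combination libraries (log2 fold change 2.45 ± 0.17, adjusted p = 7.43e-05). TXNRD1, thioredoxin reductase, reached 2499.9 and 2815 CPM from 679 and 667 CPM (log2 fold change 1.98 ± 0.15), and neither gene's groups overlapped. The 2 members that fell were glutathione peroxidases: GPX1 went from 372 and 419.5 CPM to 166 and 151 CPM (log2 fold change -1.32 ± 0.19, adjusted p = 0.00205), and GPX4, which reduces lipid peroxides, had a log2 fold change of -0.64 ± 0.18 but was called in only 3 of the 8 fits that leave out 1 library (adjusted p = 0.121 and 0.212 without fucoidan replicate 1 and 2 and 0.0681 without combination replicate 2).

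The promoters of TXNRD1 and GCLM are printed because both genes moved alike in the 2 combination libraries and hold the core of the antioxidant response element, the sequence NRF2 binds, within the 250 bases before a RefSeq start. The core searched was TGACNNNGC on both strands, with N any base. Windows of 50 bases are given 5′ to 3′ on the strand of the gene, from RefSeq on GRCh38.p14, with the match in capitals. For TXNRD1, which has 2 entries in the RefSeq table, the first was used.
TXNRD1 (chr12:104215659-104215708, plus strand): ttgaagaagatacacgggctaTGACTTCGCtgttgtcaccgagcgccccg
GCLM (chr1:93909436-93909485, minus strand): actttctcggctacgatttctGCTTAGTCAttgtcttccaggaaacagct
The core began 99 bases before the start of TXNRD1 and 34 before that of GCLM. It was found in 4 of the 11 promoters of pathway members that rose and were in the table (36.4%, also SLC3A2 and ME1), in 6 of 29 promoters of all pathway members (20.7%), in 13.1% of the promoters of all genes that rose and in 3013 of 27305 promoters.

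Heme breakdown and iron storage showed 3 increases among 16 tested genes (18.8%) and 0 decreases (background 10.2% and 10.6%), with a median of 0.10. The ferritin chains, which store iron, were 2 of them. FTL went from 1238 and 1249 CPM to 4544 and 3796 CPM (log2 fold change 1.75 ± 0.16, adjusted p = 0.000189), and FTH1 from 3408 and 3647 CPM to 9311 and 7207 CPM (log2 fold change 1.23 ± 0.18). HMOX1, heme oxygenase, was at 59.1 and 58.7 CPM in the fucoidan libraries and 546 and 149 CPM in the combination libraries. Combination replicate 1 was the highest library and replicate 2 lay between it and the fucoidan pair (log2 fold change 2.56 ± 0.47, adjusted p = 0.00563). When combination replicate 1 was left out its log2 fold change was 1.33, and without fucoidan replicate 1 its adjusted p was 0.0531. Among 8 tested metallothionein and zinc genes, 4 rose and 1 fell, but 1 and 0 did so without combination replicate 1 and 0 and 0 without either fucoidan replicate. MT2A, a metal-binding metallothionein, went from 703 and 786 CPM to 1138 and 1459 CPM (log2 fold change 0.80 ± 0.20, adjusted p = 0.0204, 0.154 without fucoidan replicate 1 and 0.0951 without replicate 2).

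Among 12 tested genes of the aryl hydrocarbon receptor and xenobiotic list, 2 rose (TIPARP and STC2) and 2 fell (HES1 and LRAT). LRAT is also among the pigment epithelium markers. These calls were 16.7% each, against 10.2% and 10.6% of all genes, and the median of the list was 0.39. Leaving out combination replicate 1 gave 4 and 3 with a median of 0.21, and leaving out replicate 2 gave 5 and 3 with a median of -0.03. In 2 of the 12, CYP1A1 and CYP1B1, combination replicate 1 lay below the fucoidan mean and replicate 2 above it. CYP1A1, the cytochrome P450 by which activity of this receptor is usually read, was at 2.96 and 2.03 CPM in the fucoidan libraries and 2.13 and 17.8 CPM in the combination libraries. Only combination replicate 2 was above the fucoidan libraries, and the gene was not called (log2 fold change 2.02 ± 0.75, adjusted p = 0.0824). CYP1B1, a related enzyme, was at 13.1 and 11.96 CPM in the fucoidan libraries and 6.26 and 55.0 CPM in the combination libraries, again with replicate 2 high and replicate 1 below both fucoidan libraries (adjusted p = 0.216). Without combination replicate 1 both were called, at log2 fold changes of 2.85 (adjusted p = 0.000135) and 2.14 (adjusted p = 0.000266). TIPARP, a feedback inhibitor of the receptor, was higher in both libraries, from 61.4 and 55.8 CPM to 185 and 199 CPM (log2 fold change 1.71 ± 0.15, adjusted p = 0.00018).

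Genes of the ATF4 and amino acid response, which supply amino acids and charged tRNAs under stress, were mostly higher. Of 33 tested, 21 rose (63.6%) and 2 fell, with a median of 1.21. With combination replicate 1 left out, 18 rose and 4 fell with a median of 0.71, and without fucoidan replicate 1 or 2 the number that rose was 9 or 12. CHAC1, which degrades glutathione and is also counted in the NRF2 list, was at 0.701 and 0.837 CPM in the fucoidan libraries and 36.7 and 13.7 CPM in the combination libraries. TRIB3, a pseudokinase that feeds back on ATF4, went from 11.3 and 13.5 CPM to 279 and 65.3 CPM (log2 fold change 3.79 ± 0.55, 2.39 without combination replicate 1). PSAT1, an enzyme of serine synthesis, reached 395 and 227 CPM from 34.7 and 43.1 CPM (log2 fold change 2.995 ± 0.26, adjusted p = 0.000165). In all 3 genes combination replicate 1 was the higher of the 2 libraries, as in 32 of the 33 members, and the groups did not overlap. ASNS, asparagine synthetase and among the 21, had low counts (0.234 and 0.179 CPM to 7.12 and 1.39 CPM). So did SLC38A2, an amino acid transporter and among the 2 that fell (0.935 and 1.38 CPM to 0.399 and 0.334 CPM). Both calls therefore rest on few reads. Whether the counting missed reads of ASNS and SLC38A2, so that their true levels are higher, was not tested. Aminoacyl-tRNA synthetases, which charge tRNAs and are partly under ATF4 control, followed with 11 of 20 higher (55.0%), 0 lower and a median of 0.63. Without fucoidan replicate 1 or 2, 3 or 6 of them rose. MARS1 went from 84.6 and 91.8 CPM to 296 and 229 CPM (log2 fold change 1.57 ± 0.17, adjusted p = 0.000374).

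The promoters of CHAC1 and ATF3 are shown because both genes rose and hold the core TGATGNAA of the element that ATF4 binds with its C/EBP partners, searched on both strands. ATF3, named here for its promoter and not by the rule for named genes, is a stress-induced repressor that was at 35.2 and 30.6 CPM in the fucoidan and 179 and 56.8 CPM in the combination libraries (log2 fold change 1.84 ± 0.41, adjusted p = 0.0141). It has 2 entries in the RefSeq table, of which the first was used.
CHAC1 (chr15:40953241-40953290, plus strand): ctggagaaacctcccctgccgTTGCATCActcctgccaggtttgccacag
ATF3 (chr1:212565195-212565244, plus strand): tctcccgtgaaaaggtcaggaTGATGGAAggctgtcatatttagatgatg
The match began 209 bases before the start of CHAC1 and 191 before that of ATF3. It occurred in 3 of 18 promoters of list members that rose (16.7%, also ASNS), in 4 of 28 promoters of all list members (14.3%), in 1.51% of the promoters of all genes that rose and in 3.19% of all promoters in the table.

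Secreted inflammatory signals and NF-kB targets were higher in 14 of 22 tested genes (63.6%) and lower in 2, with a median of 1.83. When combination replicate 1 was left out the counts were 12 and 2 and the median 1.09, and without fucoidan replicate 1 or 2 the number that rose was 7 or 8. CXCL8, the neutrophil chemokine interleukin-8, was at 9.89 and 12.4 CPM in the fucoidan libraries and 335 and 105 CPM in the combination libraries. Both combination libraries exceeded the fucoidan pair, replicate 1 by more (log2 fold change 4.30 ± 0.55, adjusted p = 0.00103). CXCL3, a related chemokine, went from 1.17 and 1.55 CPM to 25.1 and 11.6 CPM (log2 fold change 3.72 ± 0.39). CSF2, the growth factor GM-CSF, was at 0.545 and 0.658 CPM in the fucoidan libraries and 7.99 and 9.80 CPM in the combination libraries, where the combination libraries lay close together (log2 fold change 3.86 ± 0.28, adjusted p = 8.66e-05). PTX3, a soluble pattern receptor, rose by a log2 fold change of 3.75 ± 0.45. Interleukins did not move as one. IL1B was called at low levels (0.623 and 0.359 CPM and 1.46 and 2.84 CPM, adjusted p = 0.0344, 0.109 and 0.218 without fucoidan replicate 1 and 2 and 0.101 without combination replicate 2). IL6 was at 1.32 and 2.09 CPM in the fucoidan libraries and 0.932 and 1.84 CPM in the combination libraries, with overlapping groups (adjusted p = 0.636). IL1RN, the interleukin-1 receptor antagonist, fell from 6.31 and 6.94 CPM to 0.599 and 1.06 CPM (log2 fold change -2.97 ± 0.31, adjusted p = 0.000353). IL18 had a log2 fold change of -0.73 ± 0.17 and lost its call without either fucoidan replicate (adjusted p = 0.0898 and 0.13).

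Immediate early genes and feedback genes of the ERK MAPK pathway divided by member. Of 35 tested, 19 rose (54.3%) and 2 fell, with a median of 1.13 that was 0.58 without combination replicate 1, where 17 rose and 3 fell. Without fucoidan replicate 1 or 2 the number that rose was 11 or 10. FOSL1, an AP-1 subunit, was at 23.5 and 22.6 CPM in the fucoidan libraries and 382 and 225 CPM in the combination libraries (log2 fold change 3.72 ± 0.25, adjusted p = 5.82e-05). ETV4, an ETS factor downstream of ERK, went from 2.88 and 3.05 CPM to 26.0 and 26.7 CPM (log2 fold change 3.15 ± 0.21, adjusted p = 5.82e-05), and both combination libraries gave nearly the same value. SPRY4, an inhibitor of receptor tyrosine kinase signalling, rose from 0.935 and 0.957 CPM to 44.7 and 16.2 CPM (log2 fold change 4.99 ± 0.54). PHLDA1 was at 57.4 and 55.4 CPM in the fucoidan libraries and 278 and 253 CPM in the combination libraries, again with close replicates (log2 fold change 2.23 ± 0.15). The members that fell were other AP-1 subunits. FOS was at 378 and 280.2 CPM in the fucoidan libraries and 54.6 and 35.6 CPM in the combination libraries (log2 fold change -2.87 ± 0.24, adjusted p = 0.000142), and JUNB went from 284 and 271 CPM to 61.7 and 69.7 CPM (log2 fold change -2.08 ± 0.17). FOS and JUNB were thus low in both libraries in which FOSL1 was high.

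Protein quality control was less uniform. Of 24 heat shock and chaperone genes, 7 rose (29.2%) and 2 fell, with a median of 0.41, and without fucoidan replicate 1 or 2 the number that rose was 0 or 3. HSPH1, a large cytosolic chaperone, went from 66.1 and 69.9 CPM to 114 and 156 CPM (log2 fold change 0.99 ± 0.17, adjusted p = 0.00464, 0.0621 without fucoidan replicate 1). Small heat shock proteins went both ways. HSPB8 was among the increases (53.3 and 52.3 CPM to 182 and 74.3 CPM, log2 fold change 1.28 ± 0.33, adjusted p = 0.0235). Its log2 fold change was 0.49 without combination replicate 1, and its adjusted p was 0.0977 in the edgeR fit of only the 4 libraries compared. CRYAB was at 1831 and 1946 CPM in the fucoidan libraries and 779 and 794 CPM in the combination libraries (log2 fold change -1.26 ± 0.15, adjusted p = 0.000731), and HSPB1 fell from 442 and 481 CPM to 219.9 and 196 CPM (log2 fold change -1.15 ± 0.18). Among 23 genes of the endoplasmic reticulum stress response, 2 rose (8.7%) and 4 fell (17.4%), against 10.2% and 10.6% of all genes. The 4 that fell were the luminal chaperones CALR, HSPA5, PDIA3 and PDIA4. Leaving out combination replicate 1 gave 1 and 6, and leaving out replicate 2 gave 6 and 5. CALR, calreticulin, went from 2561 and 2625 CPM to 1534 and 1296 CPM (log2 fold change -0.87 ± 0.15, adjusted p = 0.00415), and without fucoidan replicate 1 or 2 the list had 0 increases and 1 decrease. SQSTM1, the autophagy receptor p62 and itself an NRF2 target, reached 2531 and 1941 CPM from 756 and 739.7 CPM (log2 fold change 1.58 ± 0.16, adjusted p = 0.00035). Of its 40-gene autophagy and lysosome list 6 rose (15.0%) and 2 fell, against 6 and 6 without combination replicate 1 and 15 and 2 without replicate 2. Of 31 proteasome subunits 3 rose (9.68%), close to the share of all genes.

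Genes of the fibrillar and provisional matrix were lower with particulate. Of 28 tested, 15 fell (53.6%, against 10.6% of all genes) and 1 rose, with a median of -0.89. Without combination replicate 1, 17 fell and the median was -1.02, and without fucoidan replicate 1 or 2 the number that fell was 8 or 11. THBS1 (ENSG00000137801, chr15:39581079-39599466, plus strand), thrombospondin, was at 6033 and 5199.7 CPM in the fucoidan libraries and 438 and 1080.4 CPM in the combination libraries. Both combination libraries were far below the fucoidan pair, replicate 1 more so (log2 fold change -2.89 ± 0.35, adjusted p = 0.000763). COL1A1, a chain of type I collagen, went from 201 and 168 CPM to 46.1 and 48.9 CPM (log2 fold change -1.96 ± 0.18, adjusted p = 0.000181). SPARC, a collagen-binding glycoprotein, fell from 4853 and 4657 CPM to 1864 and 1491 CPM (log2 fold change -1.504 ± 0.15). FN1, fibronectin, was at 2338 and 1946 CPM in the fucoidan libraries and 1028 and 968 CPM in the combination libraries (log2 fold change -1.10 ± 0.20, adjusted p = 0.00531, 0.058 without fucoidan replicate 1).

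Basement membrane genes fell in 12 of 22 cases (54.5%) and rose in 0, with a median of -0.62 that was -0.72 without combination replicate 1, where 13 fell. Without fucoidan replicate 1 or 2, 4 or 6 fell. COL4A1, a type IV collagen chain, was at 1646 and 1427 CPM in the fucoidan libraries and 569 and 519 CPM in the combination libraries, with close combination replicates (log2 fold change -1.498 ± 0.17, adjusted p = 0.000506). HSPG2, the heparan sulfate proteoglycan perlecan, went from 1084 and 826 CPM to 288 and 266 CPM (log2 fold change -1.79 ± 0.24, adjusted p = 0.00141). Among 18 matrix metalloproteinases and their inhibitors, 8 fell (44.4%) and 2 rose, and without fucoidan replicate 1 or 2 there were 4 or 5 that fell. TIMP3, an inhibitor that pigment epithelium deposits in its basement membrane, went from 1349.5 and 1239 CPM to 395 and 301 CPM (log2 fold change -1.90 ± 0.16, adjusted p = 0.000165). ADAMTS5, an aggrecan-cleaving protease, fell from 126 and 102 CPM to 22.0 and 30.6 CPM (log2 fold change -2.11 ± 0.20). MMP14, a membrane-bound collagenase, was among the increases (890.3 and 831 CPM to 1253 and 1280.0 CPM, log2 fold change 0.56 ± 0.14, adjusted p = 0.0231, 0.128 and 0.189 without fucoidan replicate 1 and 2).

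The contractile cytoskeleton fell as well. Of 28 actin, SRF and contractile genes, 15 were lower (53.6%) and 1, FLNC, was higher, with a median of -0.59. With combination replicate 1 left out, 18 were lower with a median of -0.74, and without either fucoidan replicate 9 were. LMOD1, an actin nucleator of muscle, was at 26.3 and 19.4 CPM in the fucoidan libraries and 1.33 and 1.34 CPM in the combination libraries (log2 fold change -4.09 ± 0.28, adjusted p = 6.2e-05). TPM1, a tropomyosin, went from 1864 and 1916 CPM to 641 and 641 CPM (log2 fold change -1.56 ± 0.14, adjusted p = 0.000197). CNN2, a calponin, went from 306 and 324 CPM to 105 and 104 CPM (log2 fold change -1.60 ± 0.15, adjusted p = 0.00021), and MYL9, a myosin light chain, from 234 and 258 CPM to 90.7 and 76.2 CPM (log2 fold change -1.56 ± 0.16). In TPM1, CNN2 and LMOD1 the combination replicates gave almost the same value, and no group overlapped. ACTA2, smooth muscle actin, fell from 40.2 and 41.1 CPM to 13.2 and 13.9 CPM (log2 fold change -1.58 ± 0.17).

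The CArG box is the sequence that SRF binds, and the promoters of CNN2, ACTG1 and MYLK are shown because these are the members of the list that fell and hold one in the 250 bases before the start. ACTG1, cytoplasmic actin, went from 8728 and 8881 CPM to 4202 and 3260.3 CPM, and MYLK, myosin light chain kinase, from 336 and 273 CPM to 112 and 142 CPM. Both are named for their promoters and not by the rule for named genes.
CNN2 (chr19:1026499-1026548, plus strand): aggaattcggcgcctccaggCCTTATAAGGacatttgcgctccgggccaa
ACTG1 (chr17:81512864-81512913, minus strand): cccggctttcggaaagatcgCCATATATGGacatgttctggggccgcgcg
MYLK (chr3:123620613-123620662, minus strand): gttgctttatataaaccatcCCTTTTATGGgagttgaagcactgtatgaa
The box, in capitals, began 89 bases before the start of CNN2 and 94 before those of ACTG1 and MYLK. It was present in 3 of the 12 promoters of list members that fell (25.0%), in 7 of 26 promoters of all list members (26.9%), in 1.75% of the promoters of all genes that fell and in 1.14% of all promoters. The share in members that fell was thus no higher than in the list as a whole.

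Among 24 YAP and TEAD targets 6 fell (25.0%) and 1 rose, and among 32 genes of TGF-beta and BMP signalling 10 fell (31.2%) and 4 rose. TGFB2, the ligand TGF-beta 2, was at 482 and 418 CPM in the fucoidan libraries and 117 and 138 CPM in the combination libraries (log2 fold change -1.82 ± 0.17, adjusted p = 0.000207). ID3, an early target of BMP receptors, went from 70.0 and 76.6 CPM to 7.06 and 11.4 CPM (log2 fold change -2.98 ± 0.31, adjusted p = 0.000337), and ID2 from 19.2 and 21.4 CPM to 5.72 and 3.06 CPM (log2 fold change -2.22 ± 0.27). BMP6, a BMP ligand, fell from 23.7 and 20.2 CPM to 5.46 and 4.62 CPM (log2 fold change -2.12 ± 0.20), and NOG, which binds and blocks BMPs, rose from 9.89 and 11 CPM to 23.8 and 26.1 CPM (log2 fold change 1.25 ± 0.19). CCN2, a matricellular target of YAP and TGF-beta, was at 1701 and 1635 CPM in the fucoidan libraries and 389.9 and 769.8 CPM in the combination libraries (log2 fold change -1.52 ± 0.31, adjusted p = 0.00918, 0.0562 without fucoidan replicate 1). Combination replicate 1 was the lower library for CCN2, and both were below the fucoidan pair. Leaving out combination replicate 1 gave 9 YAP and TEAD targets that fell and 1 that rose, and leaving out replicate 2 gave 8 and 7. For TGF-beta and BMP genes these counts were 10 and 2, and 11 and 8. Without fucoidan replicate 1, 2 YAP and TEAD targets and 8 TGF-beta and BMP genes fell.

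Pigment epithelium identity and retinoid genes fell in 11 of 19 tested cases (57.9%) and rose in 2, with a median of -0.78. When combination replicate 1 was left out the counts were 9 and 2 and the median -0.87, and without fucoidan replicate 1 or 2 the number that fell was 4 or 7. RDH10, which oxidises retinol to retinal, was at 199 and 188 CPM in the fucoidan libraries and 49.1 and 44.7 CPM in the combination libraries, with close replicates in both groups (log2 fold change -2.04 ± 0.16, adjusted p = 0.000132). MITF, the pigment cell master regulator, was at 76.8 and 68.6 CPM in the fucoidan libraries and 24.2 and 28.2 CPM in the combination libraries (log2 fold change -1.47 ± 0.18), and OTX2, its partner in pigment epithelium, at 96.5 and 94.5 CPM in the fucoidan libraries and 31.3 and 45.4 CPM in the combination libraries (log2 fold change -1.32 ± 0.19). Summed CPM of the 15 pigment epithelium markers ran from 3713 to 3872 in fucoidan and from 1652 to 1852 in combination, and most of it came from the keratins KRT8 (2093 and 2183 CPM to 1012 and 1087 CPM) and KRT18 (1410.4 and 1489 CPM to 566 and 676 CPM). In bulk RNA, fewer cells with a given marker and less of its RNA per cell cannot be told apart. The 2 increases were SLC6A15, an amino acid transporter (19.2 and 17.9 CPM to 42.8 and 45.5 CPM, log2 fold change 1.25 ± 0.17), and BEST1, a chloride channel that lies on the strand opposite FTH1 (1.32 and 0.957 CPM to 3.93 and 2.90 CPM, adjusted p = 0.023, 0.0944 and 0.182 without fucoidan replicate 1 and 2). Whether reads of FTH1 were counted to BEST1 was not tested.

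**Figure D2:**
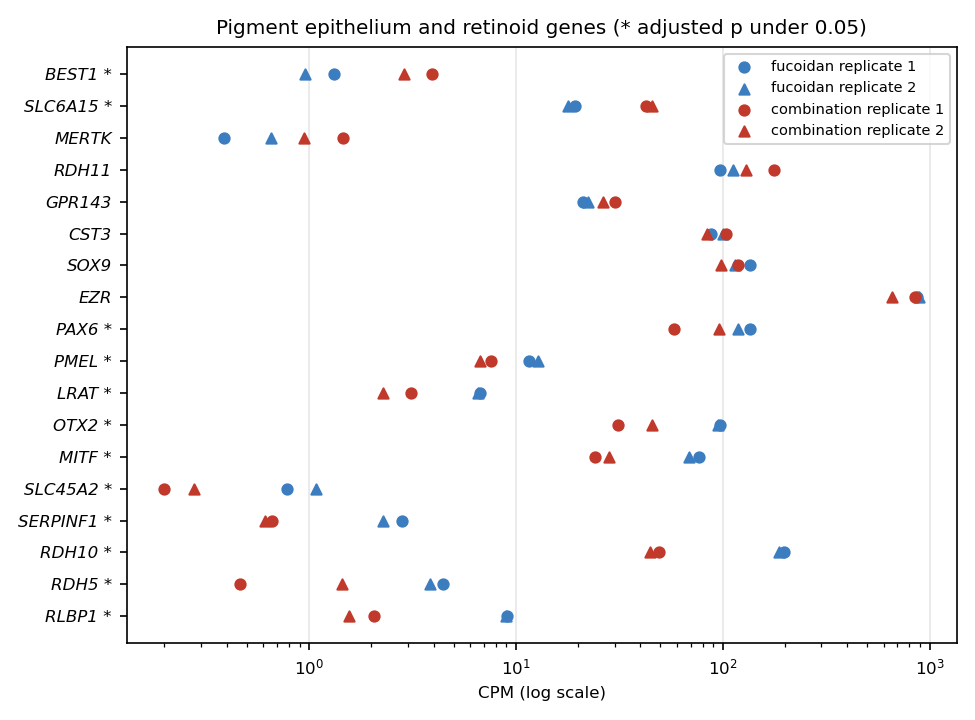
Level in each of the 4 libraries (x axis, CPM on a log scale) of 18 of the 19 tested pigment epithelium and retinoid genes, ordered by log2 fold change; blue is fucoidan, red is combination, circles are replicate 1 and triangles replicate 2, and an asterisk marks an adjusted p under 0.05. For RDH10 the red marks lie apart from the blue ones and close to each other.

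Some epithelial genes fell as well. Of 18 epithelial and transition genes 8 were lower (44.4%) and 2 higher, and of 26 junction genes 7 were lower (26.9%) and 2 higher (0 higher in either list without fucoidan replicate 1, with 7 and 2 lower). KRT80 was at 1126 and 1062 CPM in the fucoidan libraries and 345 and 384 CPM in the combination libraries (log2 fold change -1.59 ± 0.14, adjusted p = 0.000193), and KRT13, a keratin of stratified epithelia, went from 36.5 and 34.1 CPM to 0.666 and 0.390 CPM (log2 fold change -6.07 ± 0.43). CRB2, an apical polarity protein of retinal epithelia, went from 51.6 and 52.3 CPM to 1.13 and 1.56 CPM (log2 fold change -5.25 ± 0.26, adjusted p = 1.97e-05). JUP, plakoglobin of desmosomes, fell from 124 and 114 CPM to 42.8 and 43.1 CPM (log2 fold change -1.47 ± 0.15). ITGB4, the integrin chain of hemidesmosomes, fell from 120.4 and 101 CPM to 33.2 and 27.2 CPM (log2 fold change -1.87 ± 0.19), while ITGA2, a collagen receptor chain, rose from 5.69 and 4.90 CPM to 33.95 and 22.6 CPM (log2 fold change 2.42 ± 0.32). Combination libraries did not overlap fucoidan libraries for any of these 6 genes, as for 3109 of all 3110 genes called. Of 21 integrin and focal adhesion genes tested, 3 rose (14.3%) and 2 fell (9.52%), against 10.2% and 10.6% of all genes. The median of that list was -0.07, and 0.05 without combination replicate 2. TP63, an epithelial transcription factor used as a keratinocyte marker, went from 6.70 and 5.62 CPM to 0.1997 and 0 CPM. KRT10, another such marker, was at 24.8 and 24.8 CPM in fucoidan and 25.6 and 26.8 CPM in combination.

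Angiogenic and vessel-related genes went both ways, with 6 of 21 higher (28.6%) and 8 lower (38.1%). Their median was -0.12, against -0.43 without combination replicate 1 and 0.05 without combination replicate 2. NRP1, a co-receptor of VEGF, went from 23.6 and 28.1 CPM to 78.8 and 93.8 CPM (log2 fold change 1.74 ± 0.18, adjusted p = 0.000367). ANGPTL7, a secreted angiopoietin-like protein, was at 80.3 and 70.0 CPM in the fucoidan libraries and 0.799 and 1.00 CPM in the combination libraries (log2 fold change -6.36 ± 0.24, adjusted p = 3.54e-06), opposite in direction to ANGPTL4. FGF1 fell from 36.1 and 39.5 CPM to 9.45 and 11.6 CPM (log2 fold change -1.84 ± 0.18), and EDN2, an endothelin, from 14.6 and 12.3 CPM to 0.1997 and 0.111 CPM. Among p53 targets and apoptosis genes 8 of 35 rose (22.9%) and 9 fell (25.7%), with a median of -0.10. PMAIP1, the BH3 protein NOXA, went from 8.18 and 8.55 CPM to 43.7 and 28.4 CPM (log2 fold change 2.103 ± 0.25, adjusted p = 0.000783). DDB2, a p53-induced DNA damage sensor, fell from 78.8 and 80.2 CPM to 26.9 and 33.6 CPM (log2 fold change -1.39 ± 0.17), and PLK2, a p53-induced kinase, from 1512 and 1524 CPM to 134 and 363 CPM (log2 fold change -2.61 ± 0.39). CDKN1A, the p53-induced cell cycle inhibitor p21, was at 518 and 517 CPM in the fucoidan libraries and 643 and 431 CPM in the combination libraries, and its groups overlapped (adjusted p = 0.861). Without fucoidan replicate 1, 2 p53 genes rose and 5 fell, and 2 angiogenic genes rose and 5 fell.

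The cell cycle lists moved little. Of 32 mitosis genes 0 rose and 3 fell (9.38%), and MKI67, the proliferation antigen, was at 514 and 448 CPM in the fucoidan libraries and 223 and 377 CPM in the combination libraries, with combination replicate 1 lowest (adjusted p = 0.102). Without combination replicate 2, 14 mitosis genes fell, and without replicate 1, 1 did. Of 35 DNA replication genes 3 rose (8.57%), and 11 rose without combination replicate 1. In 25 of the 35, combination replicate 1 lay below the fucoidan mean and replicate 2 above it.

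For glycolysis and hypoxia-induced genes the combination libraries lay mostly on opposite sides of the fucoidan mean. Of 38 tested, 1 rose (HK1) and 0 fell, with a median of 0.11. In 29 of the 38, combination replicate 1 lay above the fucoidan mean and replicate 2 below it. HK2, a hexokinase, was at 50.3 and 51.4 CPM in the fucoidan libraries and 671 and 52.1 CPM in the combination libraries, so that only replicate 1 was raised (adjusted p = 0.0576). NDRG1, a gene strongly induced by hypoxia, was at 217 and 220.2 CPM in the fucoidan libraries and 2576 and 115 CPM in the combination libraries, with one library far above and one below the fucoidan pair (adjusted p = 0.102). Without combination replicate 1, 18 of the 38 fell, 1 rose and the median was -0.90, and without combination replicate 2, 23 rose and 2 fell. PLIN2, which coats lipid droplets, was likewise far higher in replicate 1 (76.4 and 77.9 CPM in fucoidan and 478 and 105 CPM in combination). It was called with all 8 libraries (adjusted p = 0.0375) but in only 1 of the 8 fits that leave out 1 of them (adjusted p = 0.268 without combination replicate 1). A direction for this list is not given, since it turns with the library left out.

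**Figure D3:**
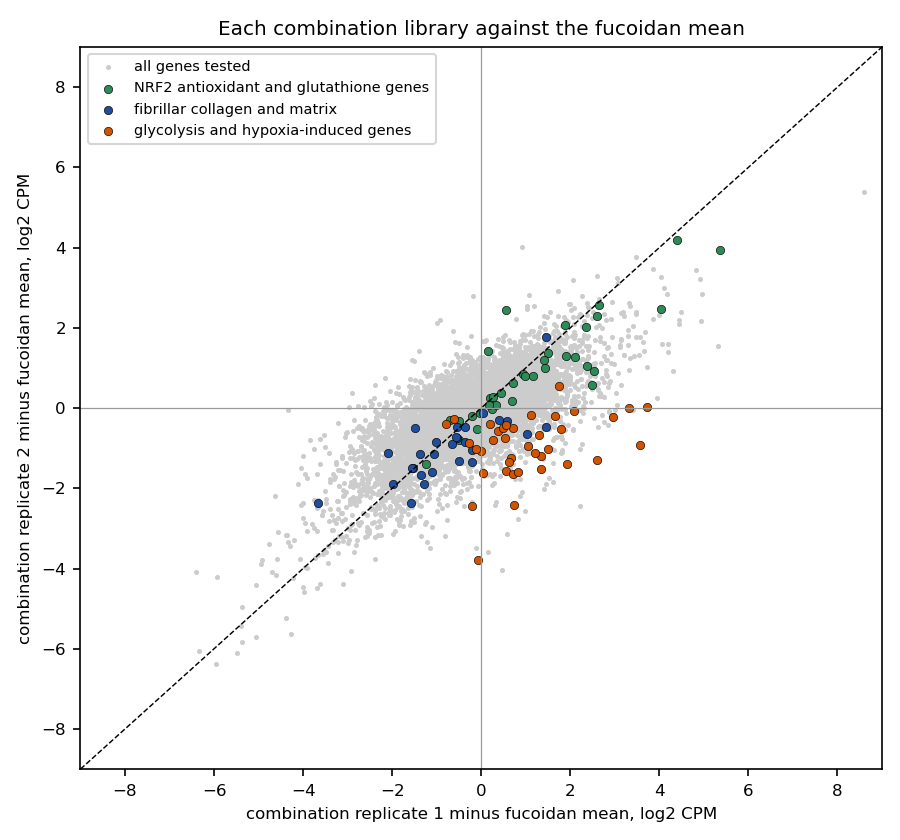
Each gene's log2 CPM in combination replicate 1 (x axis) and combination replicate 2 (y axis), both minus the mean of the fucoidan libraries; grey points are all 15010 genes tested, and the dashed line marks equal values. NRF2 genes (green) lie mostly in the upper right and matrix genes (blue) mostly in the lower left, while 29 of 38 glycolysis and hypoxia-induced genes (orange) lie in the lower right, above the fucoidan mean in replicate 1 and below it in replicate 2.

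Lipid genes differed by list. Of 26 cholesterol synthesis and uptake genes 4 fell (15.4%) and 0 rose. Leaving out combination replicate 1 gave 11 that fell and a median of -0.51 in place of -0.15, and leaving out replicate 2 gave 4 that fell and 4 that rose. With fucoidan replicate 1 or 2 left out, 1 or 0 fell. Of 21 PPAR target, lipid droplet and fat oxidation genes 5 rose (23.8%) and 3 fell (14.3%), and 4 and 3 did so without combination replicate 1. The 5 were ANGPTL4, CPT1A, PLIN2, PPARD and PPARG. HMGCS1, an early enzyme of the pathway, was at 459 and 472 CPM in the fucoidan libraries and 372 and 283 CPM in the combination libraries (adjusted p = 0.0619, 0.0113 without combination replicate 1). CPT1A, which admits fatty acids to mitochondria, rose in both libraries, from 43.3 and 42.2 CPM to 85.5 and 84.3 CPM (log2 fold change 0.99 ± 0.13, adjusted p = 0.00145). PDK4, which shifts cells from glucose to fat, fell from 4.52 and 5.62 CPM to 1.26 and 1.61 CPM (log2 fold change -1.81 ± 0.29).

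Transcripts of the mitochondrial genome rose in 4 of 13 cases (30.8%) and fell in 0, with a median of 0.74, and 6 rose without combination replicate 1 and 0 without either fucoidan replicate. MT-CYB, a subunit of complex III, was at 926 and 919 CPM in the fucoidan libraries and 1901 and 1887 CPM in the combination libraries (log2 fold change 1.04 ± 0.28, adjusted p = 0.0281, 0.142 and 0.146 without fucoidan replicate 1 and 2). Mitochondrial genes took 1.45% and 1.503% of the reads in the fucoidan libraries and 2.43% and 2.62% in the combination libraries. In contrast, 0 of 32 nuclear genes of the respiratory chain rose and 1 fell, with a median of -0.14.

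The circadian clock list had 2 increases and 4 decreases among 18 genes, against 1 and 7 without combination replicate 1 and 10 and 4 without replicate 2. With all 8 libraries, the increases and decreases were 11.1% and 22.2% of the clock list, against 10.2% and 10.6% of all genes. The decreases included 3 PAR-domain factors that clock proteins drive. DBP went from 15.5 and 17.1 CPM to 2.86 and 2.12 CPM (log2 fold change -2.72 ± 0.23, adjusted p = 0.000159), and TEF from 25.6 and 25.1 CPM to 11.8 and 10.1 CPM (log2 fold change -1.22 ± 0.17). HLF was at 2.03 and 1.79 CPM in the fucoidan libraries and 0.466 and 0.501 CPM in the combination libraries (adjusted p = 0.0136, 0.0876 and 0.0679 without fucoidan replicate 1 and 2). The median of the list was 0.56, and -0.30 without combination replicate 1, so its direction depends on that library while those of DBP and TEF do not.

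Genes that build heparan sulfate and other sulfated chains were examined because fucoidan is itself a sulfated polysaccharide. Of 33 tested 5 rose and 5 fell (15.2% each), with a median of 0.09. Leaving out combination replicate 1 gave 6 and 8 with a median of -0.02, and leaving out replicate 2 gave 10 and 5. With fucoidan replicate 1 or 2 left out, 2 or 1 rose. NDST1, which sulfates heparan chains, went from 739.5 and 661 CPM to 260.0 and 279 CPM (log2 fold change -1.38 ± 0.16, adjusted p = 0.000559). SULF1, which removes sulfate from them outside the cell, fell from 23.8 and 22.2 CPM to 6.06 and 4.62 CPM (log2 fold change -2.11 ± 0.21), and GPC4, a core protein, from 50.4 and 46.6 CPM to 19.8 and 15.9 CPM (log2 fold change -1.45 ± 0.17). CHST15, a chondroitin sulfotransferase, rose from 13.01 and 11.4 CPM to 40.5 and 34.8 CPM (log2 fold change 1.63 ± 0.24). Of 22 complement and coagulation genes 4 rose (18.2%) and 3 fell (13.6%), against 5 and 8 without combination replicate 1 and 6 and 5 without replicate 2. With fucoidan replicate 1 or 2 left out, 1 or 2 rose. PLAUR, the urokinase receptor, rose from 17.5 and 21.1 CPM to 113 and 50.6 CPM (log2 fold change 2.07 ± 0.32, adjusted p = 0.00263), and C1R, a complement protease, fell from 56.95 and 58.5 CPM to 30.4 and 20.6 CPM (log2 fold change -1.18 ± 0.20). Of 22 interferon-stimulated genes 1 rose and 3 fell (6 without combination replicate 2, 2 without replicate 1 and 1 without either fucoidan replicate), among them IFIT1 (35.0 and 33.1 CPM to 3.86 and 11.4 CPM, log2 fold change -2.14 ± 0.37). The 1 and 3 interferon-stimulated genes were 4.55% and 13.6% of that list, against 10.2% and 10.6% of all genes. IGFBP5, a secreted binder of insulin-like growth factors, fell from 361 and 288 CPM to 71.5 and 57.01 CPM (log2 fold change -2.34 ± 0.20, adjusted p = 0.000165).

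The same contrast without fucoidan, particulate against control, uses none of these 4 libraries, although both come from a fit that shares its estimate of spread. It called 1367 genes higher (9.11%) and 1722 lower (11.5%), 3089 in all. Leaving out 1 library moved these counts from 247 and 707 (without control replicate 1) to 2421 and 2552 (without combination replicate 1). Both responses shared 2009 genes in the same direction, 872 higher and 1137 lower, which are 64.6% of the calls with fucoidan and 65.0% of those without. No gene was called in opposite directions (0 of the shared calls), and 3076 of the 3110 genes (98.9%) had the same sign. The 3110 genes were selected by their call with fucoidan, and the same-sign share over all genes tested was not computed. Across genes, which are not independent replicates, Pearson's r of the log2 fold changes was 0.815 and Spearman's rho 0.757. Pearson's r was 0.820 without combination replicate 1 and 0.693 without replicate 2.

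**Figure D4:**
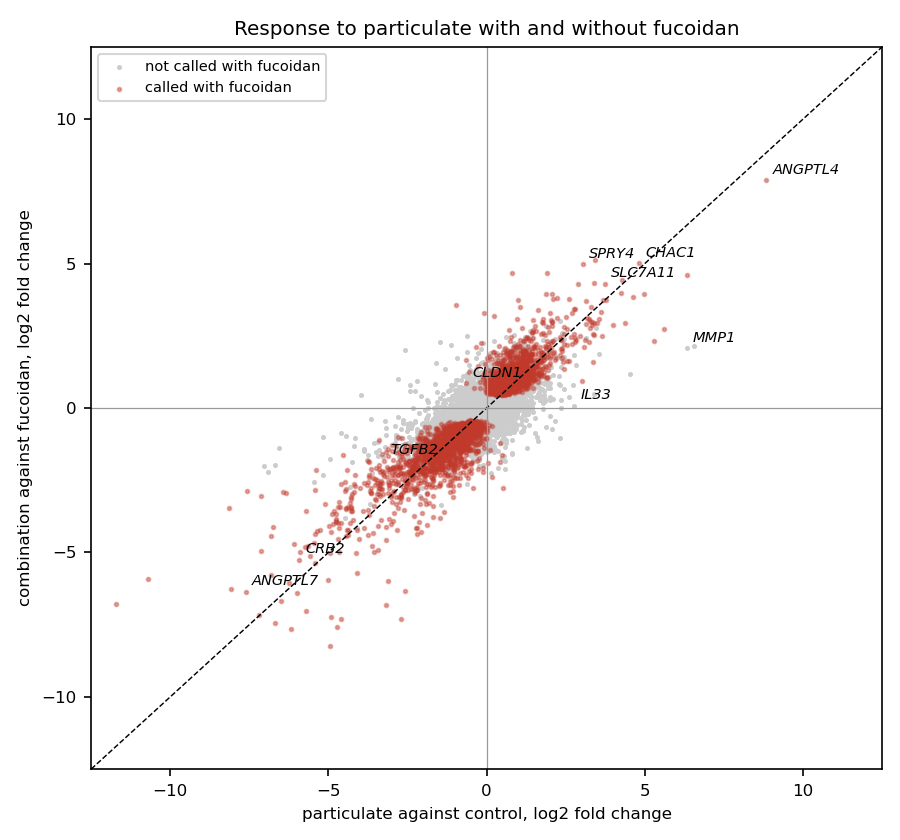
Log2 fold change of each of 15010 genes for particulate against control (x axis) and for combination against fucoidan (y axis), with genes called in the latter in red and the dashed line at equal values. Most red points have the same sign on both axes (3076 of 3110), and Pearson's r over all 15010 genes is 0.815. Closeness to the dashed line was not measured. Points at the far left include genes with 0 reads in the particulate libraries, such as ELF3. The x value of such genes depends on the prior count of the fit and is no measured fold.

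Whether the response differed with fucoidan was tested by the interaction of both treatments. It called 0 of 15010 genes (0%) in edgeR's quasi-likelihood test, where the smallest adjusted p was 0.497 and 668 genes had an unadjusted p under 0.05. DESeq2 called 20 genes, and limma-voom with sample quality weights and limma-trend on TPM called 0. The count was 2 without combination replicate 1 and 851 without combination replicate 2. The median SE was 0.31 for this difference and 0.22 for the response with fucoidan, so the test had less precision, and a p that misses the threshold does not show that both responses were alike. TGFB2 had the lowest adjusted p of the difference in DESeq2's Wald test (0.00221), so it is shown as an extreme and not as a typical gene. It went from 485 and 481 CPM in control to 45.0 and 56.3 CPM in particulate (log2 fold change -3.25 ± 0.18) and from 482 and 418 CPM to 117 and 138 CPM with fucoidan (-1.82 ± 0.17). The difference was 1.43 ± 0.23 with an adjusted p of 0.497. SPRY4 had a log2 fold change of 4.99 with fucoidan and 3.04 without (difference adjusted p = 0.897), and HMOX1 2.56 and 3.38. HMOX1 and DIO2 are the 2 genes whose difference was called without combination replicate 1, at -2.04 (adjusted p = 0.0115) and 1.67 (adjusted p = 0.0324).

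By list, the medians with and without fucoidan were 0.92 and 1.11 for NRF2 genes, 1.21 and 0.93 for the ATF4 response, 1.83 and 1.25 for inflammatory genes, -0.89 and -1.30 for the fibrillar matrix, -0.59 and -0.91 for contractile genes and -0.78 and -0.95 for pigment epithelium genes. YAP and TEAD targets had medians of -0.21 and -0.84, with 6 and 13 members lower, and mitosis genes -0.27 and -0.47, with 3 and 11 lower. Whether these medians differ was not tested. No member of these lists passed edgeR's interaction test, while DESeq2 called TGFB2, a member of the YAP and TEAD list.

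**Figure D5:**
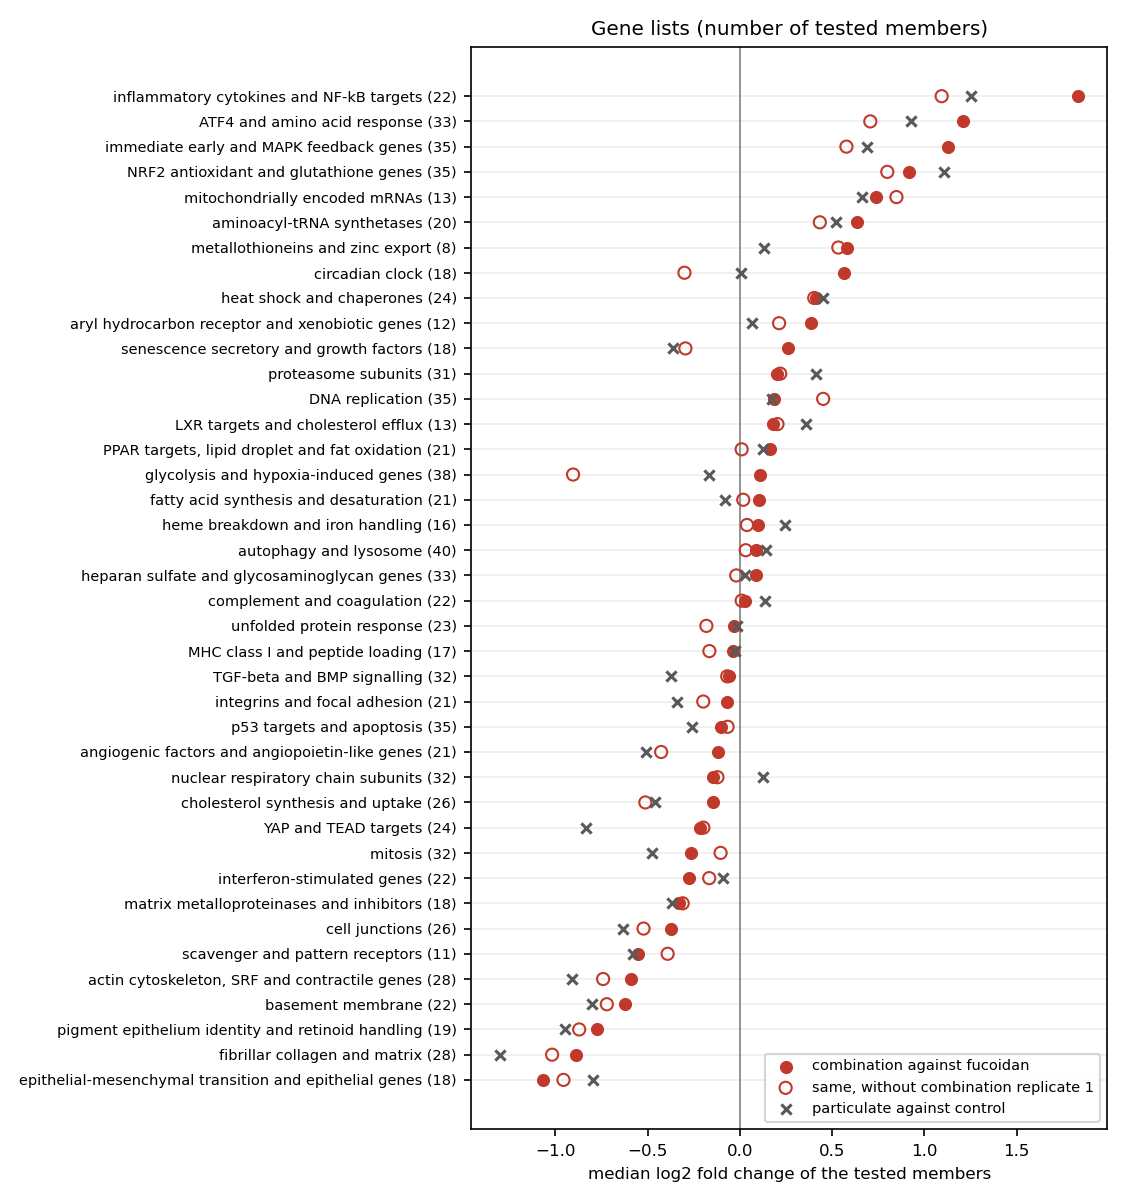
Median log2 fold change (x axis) over the tested members of each list with at least 8 of them (number in parentheses). Filled circles are combination against fucoidan, open circles the same without combination replicate 1, and crosses particulate against control; glycolysis and hypoxia-induced genes move from 0.11 to -0.90 and circadian clock genes from 0.56 to -0.30 when replicate 1 is left out, while the lists at both ends keep their side of 0.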

How the data were processed

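The values are the whole-number gene counts that the authors deposited. Per the submitters' processing notes, reads were trimmed with fastp 0.20.0, aligned to GRCh38 with HISAT2 2.1.0 and counted with featureCounts of Subread 2.0.1. TPM, as deposited and named in the file headers, served only in an alternative fit. Annotation release, strand setting and handling of multi-mapping reads in the counting are not stated there. Per the labels' protocols, libraries were stranded poly(A) libraries read as 150-bp pairs. Genes with an annotated neighbour on the other strand, such as SLC7A11, TXNRD1, FTH1, SPRY4, ETV4, PHLDA1, JUNB, PTX3, THBS1, HSPG2, COL4A1, LMOD1, MYL9, RDH10, CRB2, KRT80, ANGPTL4, ANGPTL7, ACTA2, CCN2, SQSTM1, CALR, MARS1 and DBP, are therefore uncertain, as are families with near-identical copies (ferritins, metallothioneins, HSP90).

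Of 60623 genes, 33419 had no read and 15010 passed edgeR's filterByExpr with the 4 groups. edgeR 4.0.16 in R 4.3.3 (TMM, glmQLFit, glmQLFTest) estimated 4 group means from the 8 libraries, with 4 residual degrees of freedom and a common dispersion of 0.0288. Contrasts were adjusted by Benjamini-Hochberg, with 0.05 as threshold. The SE is the log2 fold change divided by the root of F. The labels call the replicates biological. Their separate origin is not described further, so p-values measure the spread between these samples. Precision is that of 2 libraries a group. The fit takes its spread from all 4 groups together. Over genes, the SD of the log2 difference between replicates was 0.66 in combination, 0.45 in particulate, 0.31 in fucoidan and 0.32 in control. The code was tested on simulated counts. The comparison, the 45 lists and the panel of genes were chosen with earlier results of these data known, so lists are described by counts and medians with no test over a list. Named were the 12 largest changes in each direction (adjusted p under 0.05, at least 5 CPM over the 4 libraries, groups that do not overlap), for each list with at least 3 calls up to 4 members in each direction, those of lowest adjusted p, and the panel. This gave 211 genes, of which a selection is printed; some are not reported here. Of these, 200 were called, 114 of them in all 8 fits that leave out 1 library. Marker genes of cell types and genes shown for their promoters or for the difference by DESeq2 come on top. Alternatives were DESeq2 1.42.0, RLE scaling, no filter, limma 3.58.1 (voom with sample quality weights, and trend on log2(TPM + 0.5)), a replicate block, the 4 libraries alone and each library left out. Coordinates of genes are those of GENCODE 29. Promoters are from RefSeq on GRCh38.p14 and were matched by symbol.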

Additional observations from a re-analysis of the deposited data

Results flagged for a closer look

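CLDN1, which encodes the tight junction protein claudin-1, had fold changes of opposite sign with and without fucoidan, of which 1 was called. It went from 16.3 and 16.1 CPM in the fucoidan libraries to 34.7 and 23.7 CPM in the combination libraries, and from 22.6 and 23.0 CPM in control to 14.0 and 15.2 CPM in particulate. Every library of one comparison therefore moved up and every library of the other moved down. The difference of the log2 fold changes was 1.49 ± 0.29. It did not pass edgeR's interaction test (adjusted p = 0.497) and passed in DESeq2 (adjusted p = 0.0218). With fucoidan the log2 fold change was 0.85 ± 0.20 (adjusted p = 0.0175), and without fucoidan it was -0.64 ± 0.20, which did not pass (adjusted p = 0.0501). Without either fucoidan replicate the call with fucoidan was lost (adjusted p = 0.118 and 0.124).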

How the results depend on the processing

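No call changed its direction. Of 41 list medians, 12 changed sign under at least 1 setting, 15 changes in all. Of these, 4 came without combination replicate 1 and 6 without combination replicate 2. Fitting only the 4 libraries compared gave 636 genes higher and 841 lower. Leaving out 1 library at a time gave 244 to 2699 higher and 550 to 2528 lower for combination against fucoidan, and 247 to 2421 higher and 707 to 2552 lower for particulate against control. For the difference of both responses, 0 to 555 genes were larger and 0 to 296 smaller with fucoidan when 1 library was left out, with 555 and 296 without combination replicate 2. DESeq2 gave 18 and 2 there, and no filter on low counts gave 148 and 8. Other settings kept the counts of the main comparison within 1.5 times of 1526 and 1584. In the no-filter fit they were 2240 and 2033. Fewer libraries leave fewer degrees of freedom. Why the counts differ between left-out libraries was not tested. Of the 211 named genes, 48 lost their call in the fit of 4 libraries, 82 and 71 without fucoidan replicate 1 and 2, and 22 without combination replicate 1. With a replicate block, 1192 genes were higher and 1361 lower, the particulate response had 1062 and 1472, and the difference 0 and 0. Same-numbered fucoidan and combination libraries deviated together with r = 0.04, and other pairs of groups with r from -0.25 to 0.08, so the number is not taken as a pairing. Depth was alike between libraries, and genes under about 1 CPM rest on few reads.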

Other observations

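DESeq2 called the difference between both responses for 20 genes, 18 of them with a higher log2 fold change with fucoidan. Besides TGFB2 and CLDN1 they include ADAMTS5, MYOCD (a cofactor of SRF), PTPRB, NEDD9, KRT80, BDNF, CITED2 and VGLL3 (a TEAD cofactor), while MYH16 and PAX8-AS1 were lower. MYOCD was at 49.5 and 38.2 CPM in fucoidan and 12.7 and 11.4 CPM in combination, against 44.4 and 35.9 CPM in control and 3.40 and 2.63 CPM in particulate. The log2 fold changes were -1.86 ± 0.21 and -3.73 ± 0.23, and both groups with particulate lay below both without it. The difference had an adjusted p of 0.00223 in DESeq2 and 0.497 in edgeR. OTUD1 was at 29.8 and 25.8 CPM in fucoidan and 28.2 and 27.3 CPM in combination, with overlapping groups, and at 39.6 and 43.3 CPM in control and 15.9 and 18.3 CPM in particulate. In edgeR these 20 genes had adjusted p-values of 0.497 or more for the difference.

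IL33, an alarmin of epithelial cells, was at 1.95 and 1.73 CPM in fucoidan and 1.46 and 2.39 CPM in combination (log2 fold change 0.08 ± 0.35), and its log2 fold change without fucoidan was 2.76. The difference had an adjusted p of 0.575. MMP1, a secreted collagenase, had 11 and 0 reads in the fucoidan libraries and 19 and 36 reads in the combination libraries (adjusted p = 0.102), against 0 and 1 reads in control and 63 and 49 reads in particulate. MMP3, a secreted matrix protease, had 4 and 11 reads in fucoidan and 21 and 16 reads in combination (adjusted p = 0.111), against 1 and 1 reads in control and 34 and 24 reads in particulate. Both genes rest on few reads, and their differences had adjusted p-values of 0.897 and 0.895 in edgeR.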
